A study of Mus musculus with 16 samples.

Results

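The dorsal hippocampus of mice carrying extra Dnmt3a2 was compared with that of control mice 5 days after contextual fear conditioning, a task in which an animal learns to link a place with a foot shock. The comparison was chosen by label: it holds 8 of the 16 libraries of the series, 4 named Dnmt3a2_5d and 4 named Control_5d, and covers every gene that passed a filter on low counts. A recombinant adeno-associated virus (rAAV) injected into the dorsal hippocampus carried exogenous Dnmt3a2 in the first group and green fluorescent protein (GFP) in the second. Conditioning followed 3 weeks after injection in both groups, so every animal compared here had been injected, trained and killed at the same interval, and there was no untrained or uninjected group. No source used here gives the promoter of the virus, the cells it reached, or the strain, sex and age of the mice. Libraries of the other day, Dnmt3a2_1d and Control_1d, had the same treatment but were collected 1 day after training, 4 in each group, and share no library with the 5 day groups. Whether libraries of a group came from different animals is not stated in the labels, and p-values then measure only the spread between these libraries, which may be technical.

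Dnmt3a is a de novo DNA methyltransferase: it adds methyl groups to cytosines, above all those followed by guanine (CpG), that carry none. Dnmt3a2 is its shorter isoform, made from an internal promoter, and in hippocampal neurons it is known as an activity-induced form that has been tied to memory formation. Methylation of CpG-rich promoters is commonly associated with silent genes, while methylation inside genes is common in transcribed ones. The title of the series points to how long a memory lasts and how it moves from hippocampus to cortex. The comparison here addresses which hippocampal transcripts differed with Dnmt3a2 at the later of the 2 days sampled.

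Totals were 28.6 to 29.8 M estimated counts in the control group and 29.8 to 30.0 M with Dnmt3a2. Expression levels are given in CPM, the counts of a gene relative to the composition-scaled library total, and 1 CPM stands for about 28.6 to 30.0 counts. Markers of the labelled tissue were present in all 8 libraries: Prox1, a transcription factor of dentate granule neurons, lay between 136 and 173 CPM, and Wfs1 of CA1 pyramidal neurons between 208 and 331 CPM. In 3 libraries there were features that stood apart. Dnmt3a2_5d replicate 1 held 1253 CPM of Ttr (transthyretin, made by the choroid plexus) and Control_5d replicate 3 held 157 CPM, against 5.51 to 11.8 CPM in the other 6. In the same control library the Y-linked gene Ddx3y was at 8.66 CPM against 22.2 to 31.2 CPM elsewhere, with Xist at 0 to 2 counts in all 8 libraries. Dnmt3a2_5d replicate 2 had the lowest scores (mean log2 level of a list) for mitochondrially encoded (-0.38) and cytosolic ribosomal protein transcripts (-0.255). Gene calls that depended on them are given with and without them, and the median log2 change of a gene list is followed by its range over 21 alternative settings, in which each 5 day library was left out in turn.

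The delivered gene was checked first, with positions of this and later genes on build GRCm38.p6. Dnmt3a (ENSMUSG00000020661, chromosome 12, 3806007 to 3914443) was at 37.7, 34.2, 32.7 and 35.9 CPM in the 4 control libraries and at 1015, 1249, 1136 and 1244 CPM in the 4 Dnmt3a2 libraries. The lowest Dnmt3a2 library, replicate 1, was far above the highest control. The ratio of means was 33.0 (35.1 ± 2.15 against 1161 ± 110.5 CPM, SD, n = 4 each). An exact two-sided permutation test gave p = 0.0286, the smallest that the 70 regroupings of 8 libraries allow, and the log2 change was 5.05 (SE 0.17, edgeR adjusted p = 1.27e-09). Counts per gene do not separate viral from endogenous transcripts. Among the 18 tested genes of DNA methylation and demethylation Dnmt3a alone was called; 7 lay above 0, and Tet2, which oxidises methylcytosine, had the next smallest p (log2 change 0.24, edgeR adjusted p = 0.501).

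Across 16899 tested genes, edgeR's quasi-likelihood test called 54 (0.32%), with a Benjamini-Hochberg adjusted p of less than 0.05. Of these 25 were higher with Dnmt3a2 (0.148% of all tested) and 29 lower (0.172%). At an unadjusted p under 0.05 there were 1354 genes (8.01%), 671 higher (3.97%) and 683 lower (4.04%). All 54 called genes had no overlap between the 4 Dnmt3a2 and the 4 control libraries, which was also true of 1063 genes in all (6.29%), 507 higher (3%) and 556 lower (3.29%). DESeq2 called 143 genes (0.899% of the 15900 it gave an adjusted p), 70 higher (0.44%) and 73 lower (0.459%) and all 54 among them, and limma-voom 58 (0.343%), of which 53 were shared. The edgeR fit was repeated 8 times, each without 1 of the 8 libraries, and for the genes described, calls that were lost are given with these fits. Most changes were small. Among the called genes beyond Dnmt3a, more than 2-fold rises were limited to Frem3, Fst, Ecm2 and Cpne7. Another 7 called genes fell more than 2-fold, while 26 of the 54 changed by less than 1.5-fold. The calls comprised 49 protein-coding genes, 3 long intergenic noncoding RNAs, 1 antisense RNA and 1 processed pseudogene, on 19 chromosomes. In whole tissue, fewer cells of a type and less RNA per cell cannot be told apart.

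**Figure D1:**
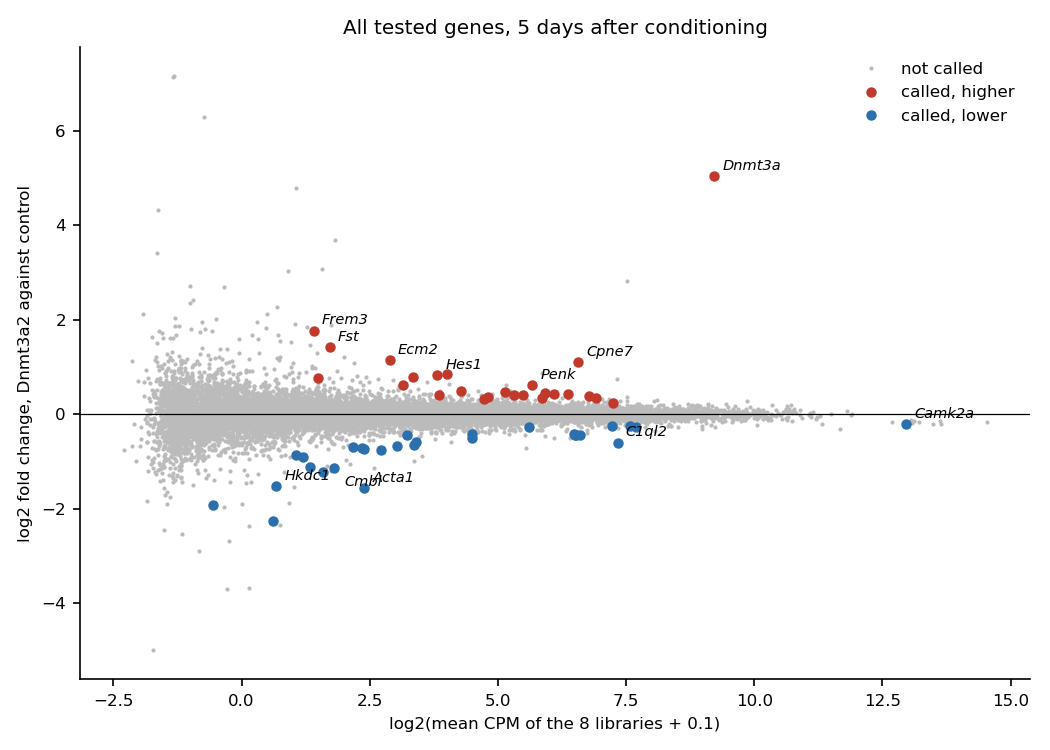
Log2 fold change at 5 days (y axis) against the log2 of the mean CPM of the 8 libraries plus 0.1 (x axis) for all 16899 tested genes. Red and blue points are the 25 and 29 called genes. Dnmt3a stands alone at the top right, and most other called genes lie within a 2-fold change.

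An opioid peptide precursor and 2 receptor genes were higher with Dnmt3a2. Penk (ENSMUSG00000045573, chromosome 4, 4133531 to 4138819), the precursor of the enkephalin opioid peptides, was at 39.9, 43.6, 36.7 and 40.6 CPM in the control libraries and at 66.04, 52.98, 64.2 and 62.3 CPM with Dnmt3a2. Every Dnmt3a2 library was above every control, and the rise was 1.53-fold (log2 change 0.61, SE 0.08, edgeR adjusted p = 0.00113). Serotonin acts on neurons through, among others, its 2A receptor, encoded by Htr2a (ENSMUSG00000034997, chromosome 14, 74640840 to 74709494). It was at 12.1, 13.1, 9.22 and 10.99 CPM in controls and 16.7, 21.8, 21.4 and 21.8 CPM with Dnmt3a2. Replicate 1 was the lowest of the Dnmt3a2 libraries but still above all controls, and the gene rose 1.79-fold (log2 change 0.84, SE 0.13, edgeR adjusted p = 0.00299). Drd5, a dopamine receptor that raises cyclic AMP, rose less, from 23.5 ± 0.918 to 29.4 ± 1.62 CPM (log2 change 0.32, SE 0.07, edgeR adjusted p = 0.0428). Its call was lost in 8 of 8 fits (edgeR adjusted p up to 0.232). The exons of Drd5 share 48.6% of their bases with the antisense RNA Gm26560, which was at 1.05 CPM, and no source used here gives the strand setting of the counting.

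Those 2 receptors were the members called by edgeR among 37 tested monoamine and acetylcholine receptors. Of the 37, 29 lay above 0 (78.4%, against 52.8% of all genes) with a median log2 change of 0.073, range 0.042 to 0.142, against 0.008 over all genes. The next by p were the adrenergic receptors Adra1d (log2 change 0.33, edgeR adjusted p = 0.125) and Adra2a (log2 change 0.49, edgeR adjusted p = 0.125), then the serotonin receptor Htr1a (log2 change 0.21, edgeR adjusted p = 0.339), none of which passed by edgeR, while DESeq2 called Adra1d and Adra2a as well (DESeq2 adjusted p = 0.0271 and 0.027). Among 27 neuropeptide precursors edgeR called Penk alone, and the median lay at -0.106, range -0.142 to -0.013. Pdyn, the dynorphin precursor and thus another opioid gene, was at 20.00 CPM in controls and 15.1 CPM with Dnmt3a2, in the opposite direction to Penk, and did not pass by edgeR (log2 change -0.41, edgeR adjusted p = 0.0913) but did by DESeq2 (adjusted p = 0.0217). None of 32 neuropeptide receptors was called by edgeR. In that list 10 members had an unadjusted p under 0.05, 7 higher and 3 lower, against 3.97% and 4.04% of all genes. DESeq2 called 2 and limma-voom 1. Closest was the melanocortin receptor Mc4r (log2 change 0.73, edgeR adjusted p = 0.0544).

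Ppp1r1b, which encodes DARPP-32, an inhibitor of protein phosphatase 1 that acts downstream of dopamine receptors, was at 46.04, 52.3, 54.3 and 52.7 CPM in controls and 81.00, 62.5, 68.3 and 68.3 CPM with Dnmt3a2. The highest value was that of replicate 1, the choroid-rich library, and the groups did not overlap. It rose 1.36-fold (log2 change 0.45, SE 0.09, edgeR adjusted p = 0.0299), and without that library the log2 change was 0.37 (edgeR adjusted p = 0.0716). The call was lost in 7 of 8 fits, all but that without Dnmt3a2 replicate 2 (edgeR adjusted p up to 0.121). Penk and Ppp1r1b are also striatal markers. They were the only edgeR calls among 18 striatal markers, of which 9 lay above 0 with a median of -0.002, range -0.068 to 0.03, and DESeq2 called Pdyn in addition. The summed level of the list was 464 to 506 CPM in controls and 487 to 512 CPM with Dnmt3a2. This sum includes Penk and Ppp1r1b, so it does not show the other markers alone. Drd2 and Adora2a, which define enkephalin-containing striatal neurons, were at 3.29 to 4.58 and 1.41 to 2.22 CPM in controls and at 3.30 to 4.67 and 1.00 to 1.65 CPM with Dnmt3a2.

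Among the genes called as higher were 3 secreted antagonists of the activin and bone morphogenetic protein (BMP) pathway. Activins and BMPs are ligands of the TGF-beta family that signal through paired receptor kinases to SMAD transcription factors, and follistatin, chordin and gremlin bind them outside the cell. Fst (follistatin, ENSMUSG00000021765, chromosome 13, 114452290 to 114458951) was at 1.37, 2.29, 1.41 and 1.84 CPM in the control libraries and 3.70, 4.80, 4.10 and 5.99 CPM with Dnmt3a2. The lowest Dnmt3a2 value was well above the highest control value, and the rise was 2.69-fold (log2 change 1.43, SE 0.20, edgeR adjusted p = 0.00119). Chrd (chordin, ENSMUSG00000006958, chromosome 16, 20733127 to 20742384) was at 36.8, 34.00, 32.95 and 33.2 CPM in controls and 43.98, 42.1, 48.6 and 46.6 CPM with Dnmt3a2, a tight pair of groups that did not overlap (log2 change 0.40, SE 0.07, edgeR adjusted p = 0.0163). The Chrd call was lost without Dnmt3a2 replicate 3 or 4 or Control replicate 2, 3 or 4 (edgeR adjusted p up to 0.0961). Grem1 (gremlin, ENSMUSG00000074934, chromosome 2, 113746164 to 113758646) was at 8.39, 8.63, 4.26 and 8.18 CPM in controls and 14.4, 13.1, 10.7 and 12.9 CPM with Dnmt3a2. Control replicate 3, the library low in Y-linked transcripts, was the lowest by far, while the other 3 controls agreed closely. Grem1 rose 1.73-fold (log2 change 0.79, SE 0.15, edgeR adjusted p = 0.0289). The log2 change was 0.60 without that control (edgeR adjusted p = 0.00741). Without Dnmt3a2 replicate 1, 2 or 4 or Control replicate 4 the Grem1 call was lost. Leaving out Dnmt3a2 replicate 1, for example, gave a smaller change (log2 change 0.73, edgeR adjusted p = 0.0699). The Grem1 call was also lost when only the 5 day groups were fitted. Leaving out replicate 1 of both Dnmt3a2 groups, with or without Control_1d replicate 1, ended it too (edgeR adjusted p up to 0.143 over all settings).

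EdgeR called no ligand, receptor or SMAD gene of this family. Of 54 tested members of the list the 3 antagonists were the edgeR calls, 37 lay above 0 (68.5%) and the median was 0.053, range 0.026 to 0.086. Among other secreted antagonists that were not called, noggin (Nog) had a log2 change of 0.21 (edgeR adjusted p = 0.712), Chrdl1 of -0.19 (0.758) and Twsg1 of -0.06 (0.903). Next by p were the receptor Acvr1, which DESeq2 called (log2 change -0.24, edgeR adjusted p = 0.127, DESeq2 adjusted p = 0.0243), and the ligands Gdf10 (log2 change -0.21, edgeR adjusted p = 0.424) and Gdf11 (log2 change 0.20, edgeR adjusted p = 0.447).

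A classical target of Notch signalling, the repressor gene Hes1 (ENSMUSG00000022528, chromosome 16, 30064384 to 30067796), was at 9.79, 9.53, 10.1 and 10.9 CPM in controls and 20.9, 14.9, 17.7 and 17.99 CPM with Dnmt3a2. All 4 controls lay within a narrow band below the lowest Dnmt3a2 library, and the rise was 1.77-fold (log2 change 0.82, SE 0.10, edgeR adjusted p = 0.000265). The other 33 tested Notch pathway genes were not called. The ligand Dll1 (log2 change 0.35, edgeR adjusted p = 0.421) and the inhibitory family member Dll3 (log2 change -0.47, edgeR adjusted p = 0.249) had the next smallest p with opposite signs, and Hes5, another Notch target, had a log2 change of 0.28 (edgeR adjusted p = 0.832). The median of the list was -0.015, range -0.029 to 0.013.

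Extracellular matrix genes supplied 3 rises. Ecm2 (ENSMUSG00000043631, chromosome 13, 49504810 to 49532789), a matrix glycoprotein, was at 4.78, 4.65, 4.68 and 4.06 CPM in controls and 9.51, 11.9, 8.01 and 10.9 CPM with Dnmt3a2, 2.22-fold higher (log2 change 1.15, SE 0.14, edgeR adjusted p = 0.000262). Frem3 (ENSMUSG00000042353, chromosome 8, 80611080 to 80695356), of the FRAS1-related basement membrane proteins, was at 1.20, 1.33, 1.20 and 0.901 CPM in controls and 1.92, 4.97, 4.30 and 4.61 CPM with Dnmt3a2. Here Dnmt3a2 replicate 1 was far below the other 3, and still above all controls. At 3.40-fold this was the largest rise among the called genes after Dnmt3a (log2 change 1.77, SE 0.26, edgeR adjusted p = 0.00177), and without replicate 1 the log2 change was 1.99. Matn2 (matrilin 2), a filament-forming adaptor protein of the matrix, rose from 58.2 ± 7.14 to 78.04 ± 5.91 CPM (log2 change 0.42, SE 0.08, edgeR adjusted p = 0.0163), a call lost without Dnmt3a2 replicate 3 or 4 or Control replicate 1, 3 or 4 (up to 0.102). In a list of 87 matrix and proteoglycan genes edgeR called Ecm2 and Frem3, 63 lay above 0 (72.4%) and the median was 0.069, range 0.037 to 0.092. The collagen Col4a2 (log2 change 0.25, edgeR adjusted p = 0.329) and the heparan sulphate enzyme Extl1 (log2 change -0.20, edgeR adjusted p = 0.08) did not pass by edgeR, and DESeq2 called Extl1 (DESeq2 adjusted p = 0.00376). Ecm2 lies inside Cenpp on the opposite strand without shared exon bases.

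The copines are calcium-dependent phospholipid-binding proteins. Cpne7 (ENSMUSG00000034796, chromosome 8, 123117374 to 123135182) was at 59.3, 70.9, 57.9 and 52.4 CPM in controls and 119, 127, 133 and 140.4 CPM with Dnmt3a2, 2.16-fold higher (log2 change 1.11, SE 0.13, edgeR adjusted p = 0.00113). Cpne9 was at 28.4, 27.2, 35.03 and 27.6 CPM in controls, the highest being replicate 3, and 40.6, 41.3, 39.3 and 41.3 CPM with Dnmt3a2, a narrow range (log2 change 0.46, SE 0.08, edgeR adjusted p = 0.014). The Cpne9 call was lost in 4 of 8 fits (edgeR adjusted p up to 0.0742), those without Dnmt3a2 replicate 4 or Control replicate 1, 2 or 4. Of the 9 tested copines, Cpne6 came next (from 649 to 749 CPM, log2 0.21, edgeR adjusted p = 0.06), while Cpne5 had the opposite sign (log2 change -0.31, edgeR adjusted p = 0.13), and neither passed by edgeR. DESeq2 called both (DESeq2 adjusted p = 0.00272 and 0.0375). The median of the 9 copines was 0.039, range -0.074 to 0.092, the lowest value being that without Dnmt3a2 replicate 1. Both called copines also stand in the list of CA3 and CA2 pyramidal neuron markers. They were its only edgeR calls among 32 members, of which 24 lay above 0 (75%, median 0.111, range 0.083 to 0.158). With both copines counted, 7 were higher and 0 lower at an unadjusted p under 0.05, against 3.97% and 4.04% of all genes. The summed level of that list was 2180 to 2420 CPM in controls and 2410 to 2590 CPM with Dnmt3a2, a sum that includes Cpne7 and Cpne9. Next by p were the potassium channel gene Kcnq5 (log2 change 0.34, edgeR adjusted p = 0.0613, DESeq2 adjusted p = 0.00733), the cadherin gene Cdh24 (log2 change 0.31, edgeR adjusted p = 0.269) and Rgs14, a regulator of G-protein signalling (log2 change 0.25, edgeR adjusted p = 0.428). In 5 members, all higher and both copines among them, the groups did not overlap, against 3% of all genes higher and 3.29% lower. Among markers that did overlap, Grik4, a kainate receptor subunit, was at 53.2 to 70.4 CPM in controls and 54.4 to 64.1 CPM with Dnmt3a2, and Bok at 26.2 to 42.0 and 29.7 to 39.8 CPM. The part of cell makeup in the copine changes was not tested.

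Other rises concerned secreted, calcium-binding and signalling proteins. Fam19a1 (also Tafa1), a small secreted protein of the brain, was at 51.1, 50.5, 52.3 and 52.02 CPM in controls and 64.8, 63.4, 64.8 and 66.1 CPM with Dnmt3a2, a small change with little spread (log2 change 0.33, SE 0.05, edgeR adjusted p = 0.00127). Calb1 (calbindin), a calcium buffer of dentate granule and superficial CA1 neurons, rose from 106 ± 4.95 to 136 ± 5.48 CPM (log2 change 0.35, SE 0.07, edgeR adjusted p = 0.0258). Its call was lost in 7 of 8 fits, all but that without Dnmt3a2 replicate 1 (edgeR adjusted p up to 0.13). It was the only edgeR call among 26 calcium buffer genes, whose median was -0.037, range -0.049 to -0.004, and DESeq2 called Hpcal1 in addition (log2 change -0.34, DESeq2 adjusted p = 0.00429). Brd9, a bromodomain subunit of a SWI/SNF chromatin remodelling complex, rose from 70.3 ± 4.73 to 94.9 ± 4.59 CPM (log2 change 0.43, SE 0.07, edgeR adjusted p = 0.00614). Pip4k2c, a phosphoinositide kinase, had the smallest rise called, from 139.7 ± 0.964 to 164 ± 4.35 CPM (log2 change 0.23, SE 0.04, edgeR adjusted p = 0.00988), which was lost without Dnmt3a2 replicate 4 (edgeR adjusted p = 0.0735).

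At synapses the clearest change was a fall. C1ql2 (ENSMUSG00000036907, chromosome 1, 120340582 to 120343174), a secreted C1q-family protein that dentate granule neurons place at mossy fibre synapses, was at 186, 171, 205 and 215 CPM in controls and 136, 127, 126 and 123 CPM with Dnmt3a2. All Dnmt3a2 libraries lay close together below the lowest control, at 0.659 of the control level (log2 change -0.60, SE 0.08, edgeR adjusted p = 0.00119). It was the only edgeR call among 70 synaptic organisers, of which 45 lay above 0 (median 0.05, range 0.027 to 0.063), so its direction was that of the minority. DESeq2 also called Cadm3, a cell adhesion molecule, which was higher (log2 change 0.20, edgeR adjusted p = 0.0697, DESeq2 adjusted p = 0.00388). Calb1 and C1ql2 both belong to the 25 dentate granule markers and moved in opposite directions. Of that list 14 lay above 0, the median was 0.013, range -0.012 to 0.036, and DESeq2 also called Dsp (log2 change -0.34, DESeq2 adjusted p = 0.0076). The summed level, Calb1 and C1ql2 included, was 2880 to 3170 CPM in controls and 2900 to 3050 CPM with Dnmt3a2. Prox1 had a log2 change of -0.22 and did not pass (edgeR adjusted p = 0.424).

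The gene for the alpha chain of the calcium/calmodulin-dependent kinase II, Camk2a, was at 8237, 8069, 8901 and 9092 CPM in controls and 7629, 7455, 7143 and 7476 CPM with Dnmt3a2. The groups did not overlap, but the change was the smallest fall called (log2 change -0.21, SE 0.04, edgeR adjusted p = 0.0448), and 11 of 21 alternative settings ended the call, among them all fits without 1 library other than Control replicate 2, such as that without Dnmt3a2 replicate 1 (edgeR adjusted p = 0.0716) or that without Control replicate 3 (edgeR adjusted p = 0.131). Of 54 postsynaptic kinases, phosphatase regulators and scaffolds, Ppp1r1b was the call upward and Camk2a the call downward, and the median was -0.01, range -0.025 to 0.012. Lypd1, a Ly6-family protein that binds nicotinic receptors, was at 104, 103, 103 and 107 CPM in controls and 71.1, 78.7, 83.2 and 76.02 CPM with Dnmt3a2 (log2 change -0.43, SE 0.08, edgeR adjusted p = 0.0104), a call lost without Dnmt3a2 replicate 4 or Control replicate 4 (edgeR adjusted p up to 0.0654). It is also the only edgeR call among 22 markers of ventral hippocampus and subiculum, 16 of which lay below 0 (median -0.094, range -0.214 to -0.002). That median was -0.031 without Dnmt3a2 replicate 1 and -0.214 without Control replicate 3. Of the exon bases of Lypd1, 17.1% are shared with Gpr39, which was below the filter. Pcdhac1, a clustered protocadherin, fell from 12.4 ± 1.35 to 7.84 ± 1.34 CPM (log2 change -0.66, SE 0.14, edgeR adjusted p = 0.0335). Since 52.8% of its exon bases are shared with other alpha protocadherins, how reads were split between them makes this value uncertain, and the call was lost in 7 of 8 fits, all but that without Dnmt3a2 replicate 2 (edgeR adjusted p up to 0.148).

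Falls also included a gene of glucose handling. Hkdc1 (ENSMUSG00000020080, chromosome 10, 62383137 to 62422491), a protein with hexokinase domains, was at 2.34, 2.06, 2.15 and 2.32 CPM in controls and 0.594, 0.921, 0.701 and 0.841 CPM with Dnmt3a2. All values were low, yet the groups were far apart, at 0.346 of the control level (log2 change -1.53, SE 0.21, edgeR adjusted p = 0.00119).

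Genes of the cytoskeleton moved both ways. Acta1 (ENSMUSG00000031972, chromosome 8, 123891769 to 123894751), the actin of skeletal muscle, was at 6.68, 7.57, 7.96 and 8.60 CPM in controls and 2.61, 2.17, 2.67 and 2.99 CPM with Dnmt3a2. It had the smallest p of all falling genes, at 0.339 of the control level (log2 change -1.56, SE 0.16, edgeR adjusted p = 2.5e-05). Net1, an exchange factor that activates RhoA, rose from 38.5 ± 3.58 to 51.2 ± 2.32 CPM (log2 change 0.41, SE 0.08, edgeR adjusted p = 0.0163), a call lost without Dnmt3a2 replicate 3 or 4 or Control replicate 2 or 3 (up to 0.102). Among 37 actin isoforms and regulators these were the 2 calls. Arhgap15, which switches off Rac, fell from 10.7 ± 0.685 to 7.89 ± 0.700 CPM (log2 change -0.43, SE 0.09, edgeR adjusted p = 0.0302), a call lost in 6 of 8 fits, all but those without Dnmt3a2 replicate 3 or Control replicate 3 (up to 0.137). The dynein gene Dnah1, whose product drives the beating of cilia, was lower with Dnmt3a2 and went from 8.09 ± 0.458 to 4.81 ± 0.294 CPM (log2 change -0.75, SE 0.15, edgeR adjusted p = 0.0299). That was against the sign of its list: 47 of 58 axoneme and cilia genes lay above 0 (median 0.215, range 0.044 to 0.368). The list's scores were highest in Dnmt3a2 replicates 1 and 4 and Control replicate 3, and without Dnmt3a2 replicate 1 the median was 0.096 and Dnah1 was no longer called (edgeR adjusted p = 0.0623), nor was it in the other 7 fits (up to 0.107).

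Among 69 axon guidance genes there was 1 edgeR call each way. Ntn3, a netrin, was at 12.1, 12.7, 12.04 and 13.8 CPM in controls and 8.35, 8.46, 9.31 and 7.53 CPM with Dnmt3a2 (log2 change -0.59, SE 0.09, edgeR adjusted p = 0.00328), with no overlap between groups. Plxnc1, a semaphorin receptor, rose from 24.4 ± 0.799 to 31.5 ± 3.09 CPM (log2 change 0.37, SE 0.08, edgeR adjusted p = 0.0347), a call lost in 7 of 8 fits, all but that without Dnmt3a2 replicate 1 (up to 0.167). Ephb2, an ephrin receptor, came next and was called by DESeq2 only (log2 change -0.34, edgeR adjusted p = 0.0613, DESeq2 adjusted p = 0.00557). Further falls were those of Minar2, a small membrane protein, from 26.4 ± 1.49 to 18.5 ± 0.636 CPM (log2 change -0.51, SE 0.07, edgeR adjusted p = 0.000674), and Cmbl, a hydrolase, from 4.63 ± 0.466 to 2.11 ± 0.385 CPM (log2 change -1.13, SE 0.16, edgeR adjusted p = 0.00136). St6galnac5, a sialyltransferase of ganglioside synthesis, changed by -0.27 (edgeR adjusted p = 0.0163) and Nrsn2, a vesicle membrane protein of neurons, by -0.42 (edgeR adjusted p = 0.0163) on the log2 scale. The calls of both were lost in 4 of 8 fits each, among them those without Dnmt3a2 replicate 4 or Control replicate 1 (up to 0.0817 for St6galnac5 and 0.0986 for Nrsn2). At low levels Klk10, of the kallikrein protease family, changed by -1.22 (edgeR adjusted p = 0.0299) and Umodl1 by -0.91 (edgeR adjusted p = 0.0289), calls that both held only in the full fit and in that without Dnmt3a2 replicate 1 among these 8 (up to 0.13 and 0.109 in the others).

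**Figure D2:**
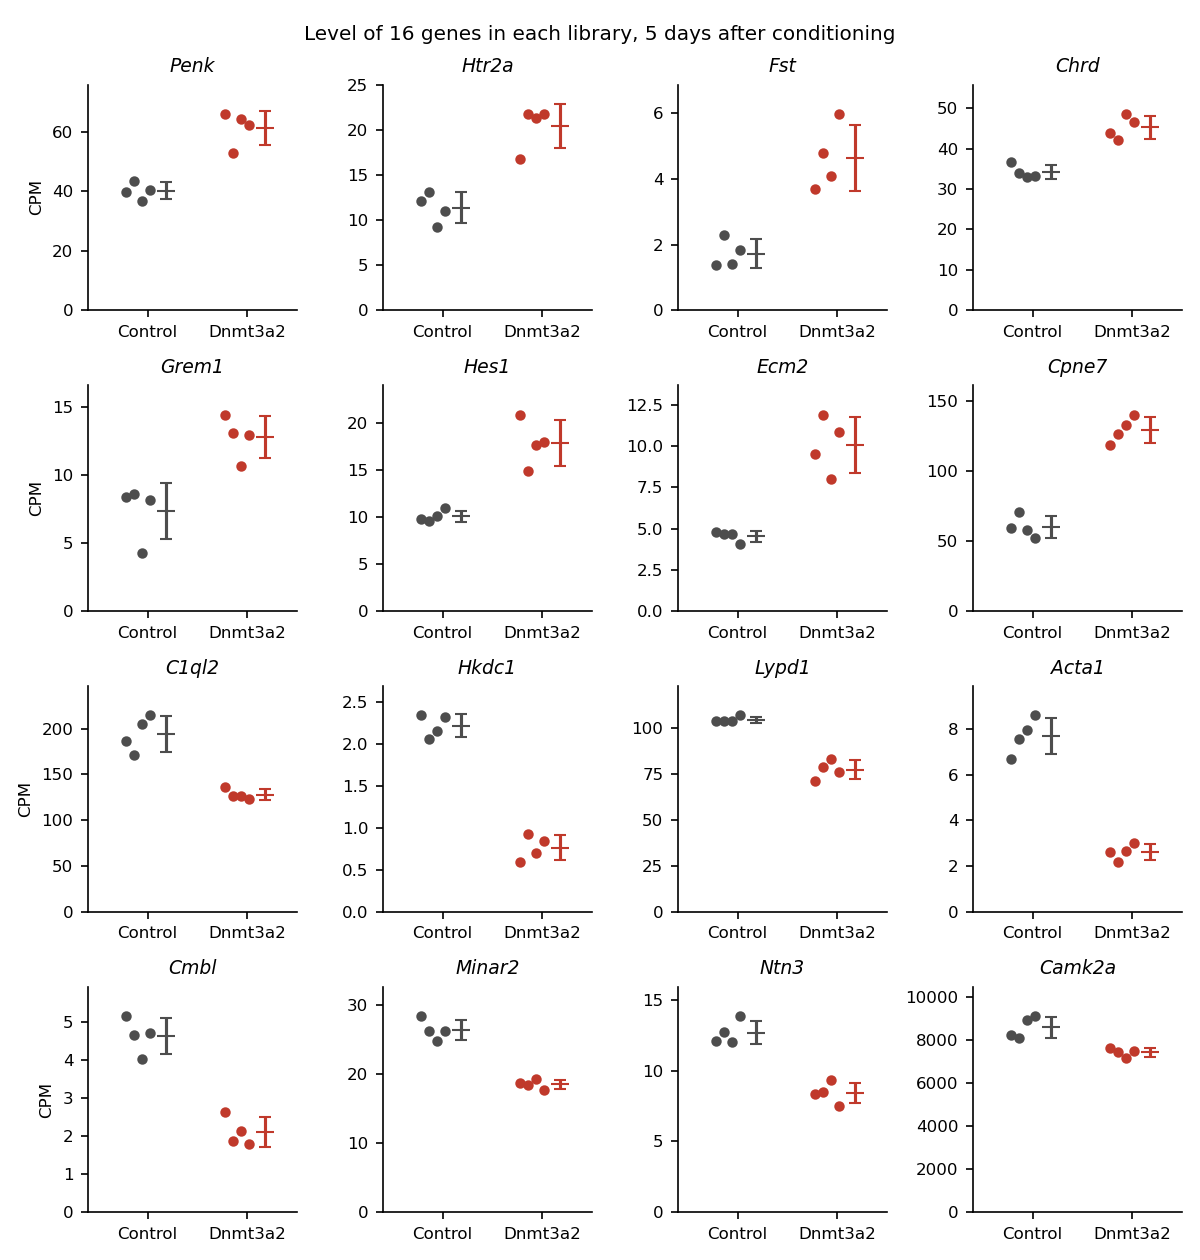
Level in CPM (y axis, from 0) of 16 called genes in each of the 4 Control_5d (grey) and 4 Dnmt3a2_5d (red) libraries, ordered by replicate from left to right. The bar beside each group is its mean with the SD. In each panel the groups do not overlap, with 8 genes higher and 8 lower with Dnmt3a2.

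CpG dinucleotides are the sites that Dnmt3a methylates, so the DNA just before the start of 6 called genes is shown, 3 that rose and 3 that fell, chosen after their values were seen. Each line gives up to 250 bases before the start annotated in RefSeq (GRCm38.p6), 5′ to 3′ on the gene's strand, with CpG in capitals. Gene positions given above come from GENCODE M21, whose start for Htr2a and Hkdc1 lies further upstream, so the last 34 bases of these windows were left out. Methylation itself was not analysed here. Htr2a is chr14:74640624-74640839 (plus strand), Grem1 chr2:113758649-113758898 (minus), Chrd chr16:20732877-20733126 (plus), C1ql2 chr1:120340332-120340581 (plus), Hkdc1 chr10:62422492-62422707 (minus) and Acta1 chr8:123894776-123895025 (minus).
Htr2a: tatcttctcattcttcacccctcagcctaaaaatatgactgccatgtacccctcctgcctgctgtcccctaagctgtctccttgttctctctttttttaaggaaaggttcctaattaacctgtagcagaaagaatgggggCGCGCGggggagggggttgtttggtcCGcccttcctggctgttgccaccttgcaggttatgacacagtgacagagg
Grem1: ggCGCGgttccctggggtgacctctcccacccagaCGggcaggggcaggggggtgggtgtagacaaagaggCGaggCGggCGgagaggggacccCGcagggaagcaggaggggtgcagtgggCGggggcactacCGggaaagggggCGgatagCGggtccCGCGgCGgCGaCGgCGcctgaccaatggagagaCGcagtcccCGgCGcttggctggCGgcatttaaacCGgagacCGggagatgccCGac
Chrd: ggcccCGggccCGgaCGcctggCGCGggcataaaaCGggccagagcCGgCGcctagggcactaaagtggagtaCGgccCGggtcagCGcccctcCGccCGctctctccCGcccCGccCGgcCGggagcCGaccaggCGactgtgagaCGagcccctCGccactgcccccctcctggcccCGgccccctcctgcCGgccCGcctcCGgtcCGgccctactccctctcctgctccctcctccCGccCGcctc
C1ql2: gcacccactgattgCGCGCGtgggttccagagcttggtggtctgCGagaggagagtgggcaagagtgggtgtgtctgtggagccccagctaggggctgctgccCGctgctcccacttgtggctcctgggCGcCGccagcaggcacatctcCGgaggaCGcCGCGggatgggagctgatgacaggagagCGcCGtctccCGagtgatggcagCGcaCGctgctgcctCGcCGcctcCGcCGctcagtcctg
Hkdc1: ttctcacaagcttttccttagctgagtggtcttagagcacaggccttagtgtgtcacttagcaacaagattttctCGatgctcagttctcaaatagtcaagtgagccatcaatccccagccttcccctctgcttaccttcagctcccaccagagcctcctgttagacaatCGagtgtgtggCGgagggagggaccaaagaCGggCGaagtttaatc
Acta1: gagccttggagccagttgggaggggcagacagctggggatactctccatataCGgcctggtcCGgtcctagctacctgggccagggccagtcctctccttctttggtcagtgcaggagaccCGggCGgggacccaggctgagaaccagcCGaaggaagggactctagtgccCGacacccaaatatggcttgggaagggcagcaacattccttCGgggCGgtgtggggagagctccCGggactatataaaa
The BMP antagonists Grem1 and Chrd had 24 and 28 CpG in this window and C1ql2 had 20, while Acta1 had 9, and in their 216 bases Htr2a had 4 and Hkdc1 5. CpG-rich and CpG-poor starts were thus found among both the genes that rose and those that fell. The motif TATAAA, searched on both strands, was present in the Acta1 window and absent from the other 5; 8.24% of the 12203 tested genes with a window had it in the full 250 bases. A window was found for 40 of the 54 called genes (74.1%), under the 80% needed, so a comparison of CpG content over all called genes is void and no value is given.

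The 1 day groups gave another look at the same contrast, with no shared libraries. The spread of each gene was estimated over all 16 libraries, so the p-values of the 2 days are not independent. All 54 genes called at 5 days had the same sign at 1 day, against 62.7% of all tested genes. At an unadjusted p under 0.05, 48 of the 54 passed at 1 day, against 7.17% of all genes, and 10 were called there after adjustment, among 15 calls in all at that day (0.0888%). These 10 were Dnmt3a, Acta1, Ecm2, Penk, Hkdc1, Htr2a, Net1, Calb1, Umodl1 and Grem1. The remaining 44 were called at 5 days and not at 1 day, which does not show that they differed between days.

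The median size of the change among the 54 was 0.60 on the log2 scale at 5 days and 0.37 at 1 day, and 47 had the larger change at 5 days. Genes chosen for passing at 5 days favour that day, so this order is a description. The difference between days was tested for every gene. By edgeR it gave 0 calls, which does not show that the 2 days were alike. At an unadjusted p under 0.05 there were 360 genes (2.13%), 11 of them among the 54. The 54 were chosen on 5 day values that enter this difference, so the 11 are no measure of an excess. Among these 11, Hes1 went from 0.30 to 0.82 (difference 0.52, SE 0.14) and Cpne7 from 0.55 to 1.11 (difference 0.56, SE 0.18). Both had an edgeR adjusted p of 1.00 for the difference. For Penk (0.65 and 0.61), Htr2a (0.73 and 0.84) and Calb1 (0.39 and 0.35) the 2 days gave close values. DESeq2 called 1 difference (0.00592%), Gm10288, named after its values were seen, and limma-voom none. Gm10288 had means of 3.23 and 2.02 CPM at 5 days and 0.737 and 0 CPM at 1 day in control and Dnmt3a2 (DESeq2 adjusted p = 0.0154). Its difference of 6.759 (SE 5.185) thus rests on a group at 0 CPM, and edgeR gave an unadjusted p of 0.224.

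**Figure D3:**
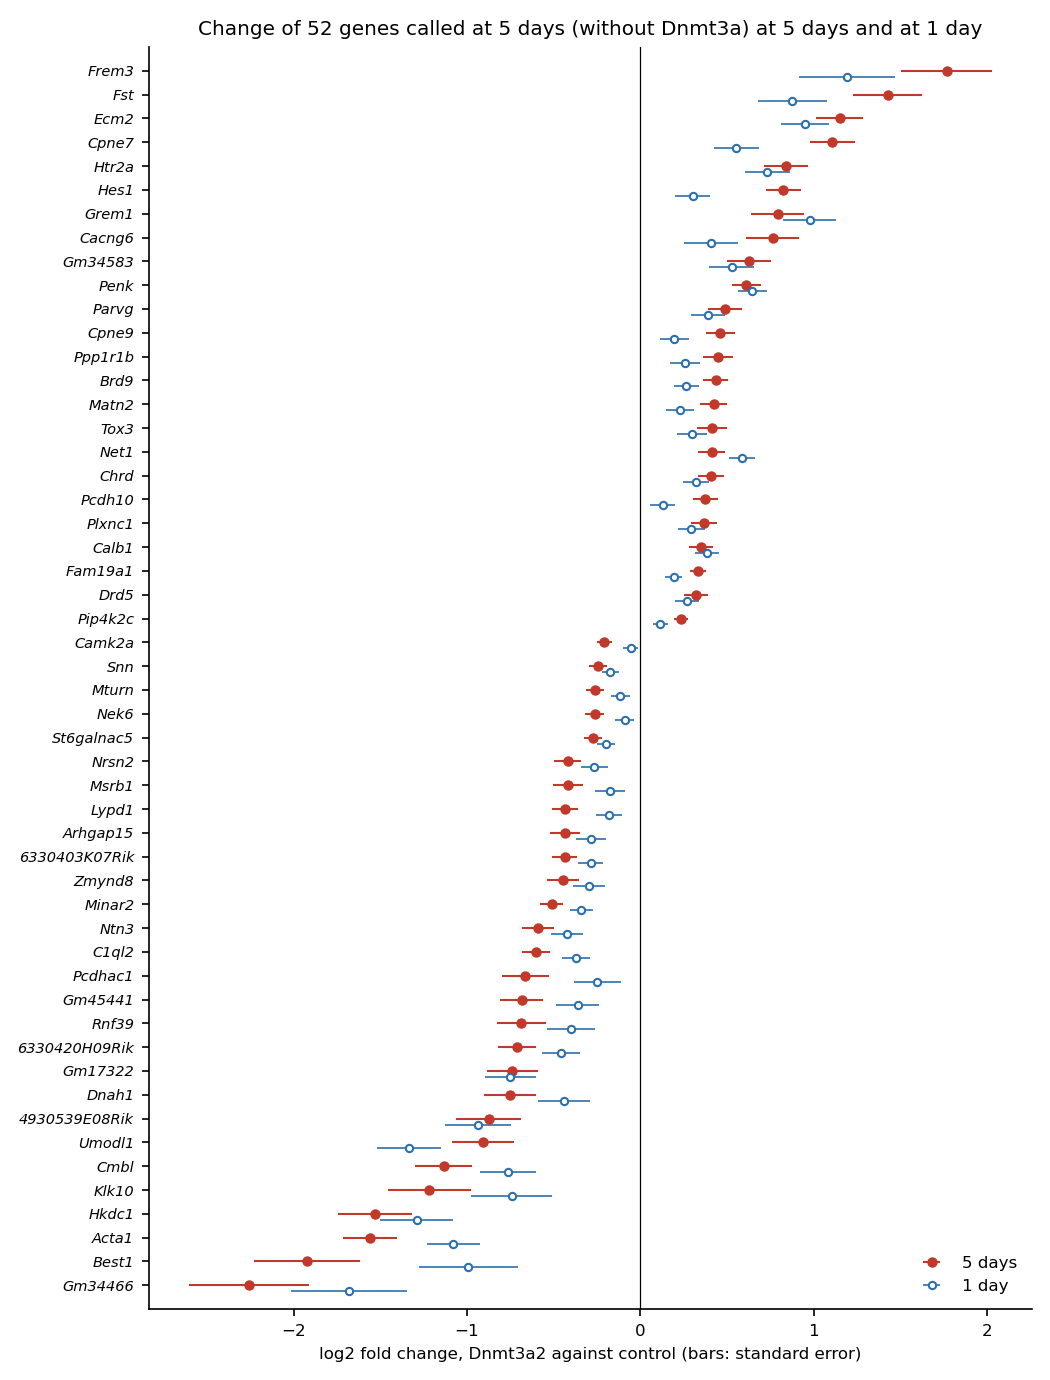
Log2 fold change with its standard error (x axis) of 52 of the genes called at 5 days, without Dnmt3a (y axis), at 5 days (filled red) and at 1 day (open blue). All points of a gene lie on the same side of 0.

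Several gene groups tied to memory or to chromatin gave no edgeR call. For 40 immediate early genes, transcripts that rise within minutes of neuronal activity, 17 lay above 0 and the median was -0.023, range -0.061 to 0.009. At an unadjusted p under 0.05 there were 2 higher and 4 lower, while over all tested genes 3.97% were higher and 4.04% lower. DESeq2 and limma-voom each called 1. Nearest was Ier5l, at 32.4 CPM in controls and 25.6 CPM with Dnmt3a2 (log2 change -0.34, edgeR adjusted p = 0.0544), followed by Btg2 (log2 change -0.27, edgeR adjusted p = 0.244) and Fosb (log2 change -0.37, edgeR adjusted p = 0.302). Ier5l was the member called by DESeq2 (adjusted p = 0.00358) and limma-voom (adjusted p = 0.047). At 1 day edgeR called Ier5l, with a log2 change of -0.44 (edgeR adjusted p = 0.0175). AMPA and kainate receptor genes with their auxiliary subunits gave 0 calls among 34 (6 higher and 2 lower unadjusted, 1 by DESeq2, 0 by limma-voom), with the auxiliary subunit Cacng7 nearest (log2 change -0.28, edgeR adjusted p = 0.0651). Among 16 NMDA and metabotropic glutamate receptor genes there were 0 calls (5 higher and 2 lower unadjusted, 0 by DESeq2 and limma-voom). Of the 16, 12 lay above 0 and the median was 0.071, range 0.004 to 0.111, lowest without Dnmt3a2 replicate 2. In the immediate early, AMPA and kainate, and NMDA and metabotropic lists, both unadjusted counts were above the shares over all genes. No set test was run. The 71 histone modifiers (3 and 2 unadjusted) and 15 methyl-CpG binding proteins and partners (0 unadjusted) gave 0 calls by edgeR, DESeq2 and limma-voom.

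Some lists moved with single libraries. All 24 choroid plexus markers lay above 0 (median 1.335, range -0.297 to 1.649), with 0 edgeR calls, 2 higher and 0 lower unadjusted, and 0 by DESeq2 and limma-voom. Their summed level was 188 to 437 CPM in controls and 208 to 1990 CPM with Dnmt3a2, and none was at 0 in all 8 libraries. Without Dnmt3a2 replicate 1 the median was -0.297. The 77 interferon and antigen presentation genes behaved alike: 63 lay above 0 (median 0.206, range -0.208 to 0.335, 0 edgeR calls, 1 higher unadjusted, 0 by DESeq2 and limma-voom), their sum was 820 to 1090 CPM in controls and 789 to 1580 CPM with Dnmt3a2, and without the same library the median was -0.188. Of the 80 cytosolic ribosomal protein genes 19 lay above 0 (median -0.057, range -0.088 to -0.01). That median was -0.01 without Dnmt3a2 replicate 2, -0.018 without Control replicate 3 and -0.088 without Dnmt3a2 replicate 1. All 13 mitochondrially encoded mRNAs lay below 0 (median -0.167, range -0.22 to -0.097). Their median was -0.097 without Dnmt3a2 replicate 2 and -0.208 without Control replicate 3. The scores of the Dnmt3a2 libraries ran from -0.38 to -0.094 against -0.12 to 0.18 in controls, so the groups overlapped. The medians of the ribosomal and mitochondrial lists kept their sign in all 21 alternatives. Neither list had an edgeR, DESeq2 or limma-voom call (0 higher and 3 lower unadjusted for the ribosomal list, 0 for the mitochondrial). Over all genes, 3.97% were higher and 4.04% lower at an unadjusted p under 0.05.

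**Figure D4:**
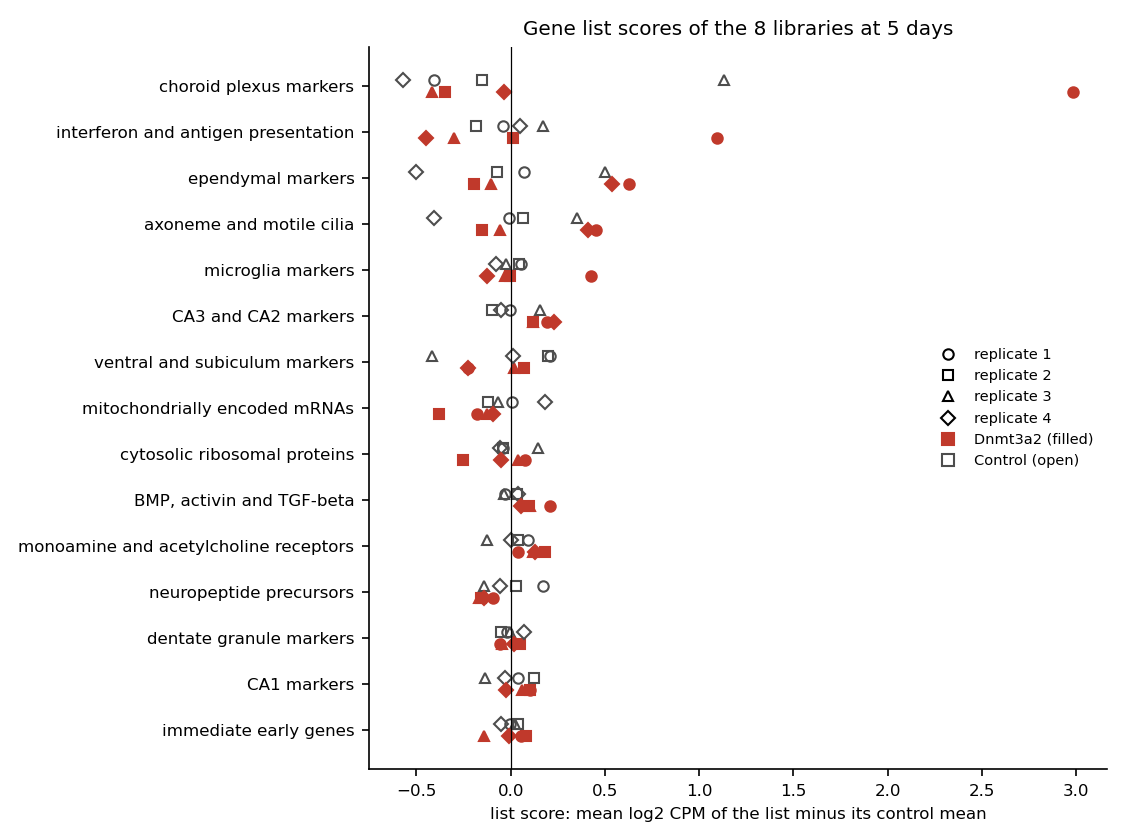
Scores of 15 gene lists (y axis) in the 8 libraries at 5 days; the score (x axis) is the mean log2 CPM of the list's genes minus its mean over the 4 controls. Filled red symbols are Dnmt3a2 and open grey symbols controls, with 1 shape per replicate number. Dnmt3a2 replicate 1 is far to the right for the choroid plexus (2.99) and interferon (1.097) lists, and Control replicate 3 for the choroid plexus list (1.13).

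The number of calls depended on single libraries. Without Dnmt3a2 replicate 1, 57 genes were called, 38 of them among the 54; without Dnmt3a2 replicate 2, 37, of which 32; and without Control replicate 3, 30, of which 27. Leaving out other libraries gave 33 (Dnmt3a2 replicate 3), 22 (Dnmt3a2 replicate 4), 29 (Control replicate 1), 36 (Control replicate 2) and 26 (Control replicate 4). In each of these 8 fits the 54 genes kept their sign. Their groups did not overlap in the full set, so leaving out 1 library could hardly have reversed a sign. Adding the choroid plexus score as a covariate gave 98 calls that included all 54. Of the 36 called genes named under the naming rule, 16 kept their call in all 21 alternatives: Dnmt3a, Ecm2, Hes1, Cpne7, Penk, Fst, Fam19a1, Frem3, Htr2a, Brd9, Acta1, Minar2, C1ql2, Hkdc1, Cmbl and Ntn3. The other 20 lost it in 1 to 8 of the 8 fits, as given above for those described.

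Just outside the threshold, Strip2 had the smallest p of the rising genes not called, at 41.9, 38.4, 44.8 and 39.1 CPM in controls and 82.7, 68.7, 66.97 and 83.8 CPM with Dnmt3a2 (log2 change 0.88, SE 0.17, edgeR adjusted p = 0.0522), a larger difference than that of most called genes. Furin, a protease that cleaves precursor proteins, had a log2 change of 0.24 and Gen1, a DNA-junction nuclease, of 0.97 (edgeR adjusted p = 0.0544 for both). On the other side lay Diras2 (log2 change -0.26), Ier5l (log2 change -0.34) and the prostaglandin transporter Slco2a1 (log2 change -1.06), each with an edgeR adjusted p of 0.0544. Just inside it, among the genes described above, were Camk2a (edgeR adjusted p = 0.0448) and Drd5 (edgeR adjusted p = 0.0428).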

How the data were processed

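RNA was sequenced on a BGISEQ-500 instrument from 500 ng of total RNA per library, per the labels. The submitters' processing notes list edgeR 3.17, Trim Galore 0.6.4, kallisto 0.4.6 and build GRCm38.p6. No source used here gives their roles and order, the annotation or the strand setting. The authors deposited estimated counts per gene, for which the notes list these tools and no steps, covering 55385 Ensembl genes, not normalised, with 26.2% of values not whole, and log2 CPM values for 16907 genes. The deposited log2 values equalled edgeR's log2 CPM of the filtered, TMM-scaled counts for all 16907 genes, to within 1e-06.

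Counts of all 16 libraries were rounded, filtered with filterByExpr and TMM-scaled in edgeR 4.0.16 (R 4.3.3), leaving 16899 genes. One robust quasi-likelihood fit had a term per group, and a gene counted as called when its Benjamini-Hochberg adjusted p was less than 0.05. Levels are TMM-scaled CPM, and list scores use log2 CPM with a prior count of 2. Symbols and overlaps came from GENCODE M21 (55144 identifiers named).

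The comparison, the 55 gene lists (1891 of 1991 symbols tested) and the rules were chosen with earlier results of these data known. Named genes were Dnmt3a, up to 14 rising and 14 falling called genes by p with at least 1 CPM and an established symbol, called list members, the 3 nearest the threshold each way, and list members with the smallest p as values. Alternatives were DESeq2 1.42.0, limma-voom (limma 3.58.1), other scaling factors and filters, no robust estimation, only the 5 day groups, a replicate block, an adjusted p of 0.10, a choroid plexus covariate, and libraries left out. Library totals were 28.6 to 30.0 M counts, and genes near 1 CPM rest on few counts. To look for libraries deposited more than once, the 5 day libraries of each group were compared in pairs, and chi-square divided by the number of genes was 4.21 to 18.7 over 12 pairs, where sampling noise alone would give about 1. Values of 1 called gene are not reported here.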

Additional observations from a re-analysis of the deposited data

Results flagged for a closer look

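In 25 of 212 groups of 4 libraries tested, 1 library lay far from the other 3 (its gap to the nearest, over the range of the group, exceeded Dixon's critical value). For independent groups chance gives about 1 in 20. These groups were not independent, since Ttr, Kl and Folr1 are also in the choroid plexus list, so the count is no measure of an excess. Dnmt3a2_5d replicate 1 was high for Ttr (1253 CPM, others 6.15 to 11.8), Kl (71.6 CPM, others 33.6 to 35.4), Folr1 (8.72 CPM, others 0.132 to 0.269) and the choroid plexus score (2.986, others -0.42 to -0.037). It was low for Htr2a (16.7 CPM, others 21.4 to 21.8) and for the interneuron marker score (-0.085, others 0.015 to 0.026), and high for the score of actin isoforms and regulators (0.017, others -0.066 to -0.055).

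Control_5d replicate 3 was high for Ttr (157 CPM, others 5.51 to 10.9), Folr1 (2.32 CPM, others 0.139 to 0.266), Cpne9 (35.0 CPM, others 27.2 to 28.4), the calcium buffer score (0.066, others -0.029 to -0.016) and the ribosomal protein score (0.145, others -0.059 to -0.042). It was low for Uty (2.46 CPM, others 8.14 to 9.13), Ddx3x (142 CPM, others 153 to 156), Grem1 (4.26 CPM, others 8.18 to 8.63) and St6galnac5 (203 CPM, others 232 to 234). Without it the log2 change of Cpne9 was 0.55, that of Grem1 0.60 and that of St6galnac5 -0.32, and all 3 were still called (edgeR adjusted p = 0.00153, 0.00741 and 0.00317).

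Other single values stood apart by smaller amounts. Control_5d replicate 1 was low for Pip4k2c (138 CPM, others 140.0 to 140.4) and the striatal marker score (-0.058, others 0.015 to 0.027), and high for the neuropeptide receptor score (0.07, others -0.031 to -0.019). Control_5d replicate 4 was high for Lypd1 (107 CPM, others 103 to 104) and low for the meningeal fibroblast score (-0.232, others 0.047 to 0.101). Dnmt3a2_5d replicate 2 was high for the potassium channel score (0.047, others -0.048 to -0.035). Dnmt3a2_5d replicate 4 was high for Drd5 (31.8 CPM, others 28.5 to 28.8), and low for Uty (7.80 CPM, others 8.68 to 8.82) and the mossy cell marker score (-0.091, others -0.002 to 0.006).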

How the results depend on the processing

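Over 21 alternatives, 0 values of the 54 called genes changed sign. The groups of all 54 did not overlap, so rescaling or leaving out libraries could hardly have reversed a sign. This count is therefore no measure of robustness. Higher calls outnumbered lower ones in 5 alternatives and equalled them in 2, so which direction had more calls was not stable. The count of 54 calls (25 higher, 29 lower) became 143 (70 and 73) by DESeq2, 94 (45 and 49) with only the 5 day groups, 104 (50 and 54) at an adjusted p under 0.10, and 98 (51 and 47) after adjustment for the choroid plexus score. Without 2 choroid-rich libraries, replicate 1 of Dnmt3a2_5d and Dnmt3a2_1d, it was 90 (37 and 53). Without these and Control_1d replicate 1, the 3 interferon-rich libraries, all numbered 1, it was 105 (44 and 61). Both settings kept Control_5d replicate 3, which had a choroid plexus score of 1.134. Without the low-count filter the count was 79, with 45 lower. Fitting only the 5 day groups kept 48 of the 54 calls and lost 6: Grem1, Camk2a, Cacng6, Mturn, Snn and 4930539E08Rik. DESeq2 called 1 difference between days where edgeR called 0. Leaving out 1 library at 5 days gave 22 to 57 calls, 10 to 31 higher and 12 to 26 lower; the cause was not tested beyond there being fewer samples. The replicate number as a block gave 65 calls (31 and 34), 52 of them shared, with Camk2a and 4930539E08Rik lost. Among the 8 libraries at 5 days, same-numbered deviations correlated at -0.067, 0.143, -0.028 and 0, and 2 of 8 libraries correlated best with their own number. The 1 day libraries were not part of this check, and so few pairs cannot show whether replicate numbers carry a structure. Of 55 list medians, 24 changed sign in at least 1 alternative and 10 without Dnmt3a2_5d replicate 1, among them choroid plexus (to -0.297), interferon (-0.188), endothelial (-0.111), copines (-0.074), meningeal fibroblast (-0.059) and microglia (-0.056). Other scaling factors moved the median of all genes by under 0.1. A difference between days could not be computed with only the 5 day groups. At 28.6 to 30.0 M counts, changes in genes well under 1 CPM were hard to detect.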

Other observations

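Among the called genes without a place in the lists, named here after their values were seen, several encode membrane and adhesion proteins. Pcdh10, a protocadherin outside the gene clusters, rose from 95.2 ± 3.37 to 123 ± 12.002 CPM (log2 0.37, edgeR adjusted p = 0.022). Parvg, a parvin that links integrins to actin, rose from 16.1 ± 0.981 to 22.6 ± 2.59 CPM (log2 0.49, edgeR adjusted p = 0.0273), and Cacng6, a calcium channel gamma subunit, from 2.02 ± 0.160 to 3.43 ± 0.625 CPM (log2 0.76, edgeR adjusted p = 0.0304). When each 5 day library was left out in turn, the Parvg call was lost in 7 of 8 fits (all but that without Dnmt3a2 replicate 1, edgeR adjusted p up to 0.139). The Pcdh10 call was lost in 6, all but those without Dnmt3a2 replicate 1 or Control replicate 2 (up to 0.122), and the Cacng6 call in 6, all but those without Dnmt3a2 replicate 1 or 3 (up to 0.139). Best1, a calcium-activated chloride channel, was at 1.07, 1.03, 0.493 and 1.11 CPM in controls, lowest in replicate 3, and 0.264, 0.230, 0.200 and 0.269 CPM with Dnmt3a2 (log2 -1.92, edgeR adjusted p = 0.00351). These levels are low, and Best1 was not tested when a mean of at least 1 CPM was asked for.

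Nuclear proteins moved both ways. Tox3, a high mobility group protein, rose from 12.3 ± 1.19 to 16.4 ± 1.03 CPM (log2 0.41, edgeR adjusted p = 0.0387), a call lost in 7 of the 8 fits, all but that without Control replicate 2 (edgeR adjusted p up to 0.143). Zmynd8, a reader of modified histones, fell from 105 ± 3.35 to 77.5 ± 6.05 CPM (log2 -0.44, edgeR adjusted p = 0.0448), a call that was lost in all 8 fits (edgeR adjusted p 0.053 to 0.171), with upper-quartile factors (0.051) and with no robust estimation (0.0505). The noncoding RNA Gm34466 had the largest fall of all calls, from 2.47, 2.62, 2.22 and 2.11 CPM in controls to 0.561, 0.329, 0.601 and 0.471 CPM with Dnmt3a2 (log2 -2.26, edgeR adjusted p = 0.00299). Gm45441, an antisense RNA that shares 44.1% of its exon bases with Grin2d, fell from 9.96 ± 1.35 to 6.20 ± 0.507 CPM (log2 -0.68, edgeR adjusted p = 0.0149). That call was lost without Dnmt3a2 replicate 3 or Control replicate 1 or 3 (up to 0.0628), and without the strand of the counting its reads cannot be told apart from those of Grin2d.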
